A study of Mus musculus with 8 samples.

Results

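The LDL receptor family groups cell surface and sorting receptors that share cysteine-rich ligand-binding repeats, and 9 of its members were examined here around the one that had been deleted, Lrp1. The members were Lrp1, Vldlr, Lrp8, Lrp2, Lrp4, Lrp5, Lrp6, Lrp10 and Sorl1, chosen by gene symbol, and each was found once among the 22520 coding genes of the table. Other genes of the family were not analysed here, apart from a short list of class A repeat proteins given further on. The mRNA-seq libraries came from liver microvascular cells of C57BL/6 mice at postnatal day 14, described in the study as endothelial cells (ECs), with 4 libraries of each genotype. LRP1 eKO libraries carried 2 floxed Lrp1 alleles (LRP1 f/f) and 1 copy of Cdh5-CreER, an inducible Cre recombinase under the promoter of the endothelial VE-cadherin gene. WT libraries came from littermates that were also LRP1 f/f but had no Cre, so that both groups carried the floxed alleles. Only LRP1 eKO libraries carried CreER, so an effect of the recombinase cannot be told apart from that of the deletion. The study isolated ECs with beads coated with an antibody against PECAM-1, a step that can carry over other liver cells. The labels do not say whether the libraries of a group came from separate mice, and the p-values measure the spread between these libraries only.

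Lrp1 is a very large endocytic and signaling receptor that clears remnant lipoproteins, protease complexes and many other ligands from the cell surface. Its relatives have partly overlapping ligands and different main tasks. Vldlr and Lrp8 take up lipoproteins and transmit the reelin signal, Lrp2 (megalin) is a scavenger receptor best known from absorptive epithelia, Lrp4 is the agrin receptor of the neuromuscular junction, Lrp5 and Lrp6 are co-receptors for Wnt ligands, and Lrp10 and Sorl1 move cargo between the Golgi and endosomes. Many receptors of the family carry a cytoplasmic NPXY motif (asparagine, proline, any residue, tyrosine) to which endocytic and signaling adaptors bind. Because of these shared ligands and motifs, the comparison of WT with LRP1 eKO libraries asks whether any relative was higher where Lrp1 was deleted.

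The NPXY motif was located in the longest open reading frame of each member's GENCODE M21 transcripts, within the last 250 codons, which hold the cytoplasmic tail. It was found in 5 of the 9 members, at 2 places each in Lrp1 and Lrp2 and at 1 place each in Vldlr, Lrp8 and Lrp4, while Lrp5, Lrp6, Lrp10 and Sorl1 had none in that window. The coding sequences around the motifs are shown because they mark the tail feature that the deleted receptor shares with the relatives described next. Capitals mark the 4 codons of the motif, and each run holds 30 coding bases, 5′ to 3′.
Lrp1, motif 1: gaaattggaAACCCTACCTACaagatgtat
Lrp1, motif 2: aacttcaccAACCCAGTGTATgccacgctc
Vldlr: aactttgacAATCCTGTGTACttgaagacc
Lrp8: aatttcgacAACCCAGTGTACaggaaaacg
Lrp2, motif 1: atatttgaaAACCCAATGTATgcagccaaa
Lrp2, motif 2: aacttcgaaAATCCAATCTATgcagagatg
Lrp4: acctatagcAACCCCTCCTACcgaacttcc
The motif lay 41 residues before the C-terminus in Lrp1 (motif 2) and 40 in Vldlr, and 101 residues before it in Lrp8. The open reading frames ran from 713 codons in Lrp10 and 873 in Vldlr to 4545 in Lrp1 and 4660 in Lrp2. No stretch of 50 identical bases was found between the transcripts of any pair of the 9 members.

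The deposited values are a quantile-normalized signal per gene, whose unit before normalization and sequencing depth are not stated. The sum over all genes lay between 484445 and 485947 in the 8 libraries, a total that the normalization fixes. Across genes the log2 signals correlated at 0.990 to 0.998 within WT and at 0.986 to 0.998 within LRP1 eKO libraries. WT replicate 4 was the WT library farthest from the group median for 61.7% of the genes tested, and LRP1 eKO replicate 2 held that place in its group for 37.2%. The 2 libraries are therefore named wherever a member's result rests on them.

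The labelled cell type was compared with defining markers before the members were read. Cdh5, whose promoter drives the Cre, averaged 1.86 ± 0.430 in WT libraries against 3.70 ± 1.34 in those of LRP1 eKO (SD, n = 4 each), and Pecam1, the target of the beads, had 2.09 ± 0.416 and 3.02 ± 0.911. Both are named because the model and the isolation rest on them. The summed signal of 8 pan-endothelial markers, led by Esam and Egfl7, was 36.4 to 38.3 in WT and 38.0 to 53.6 in LRP1 eKO libraries, and that of 7 sinusoidal markers, led by Gata4 and Stab1, was 36.5 to 39.6 and 37.8 to 56.6. Gata4 alone averaged 29.6 and 29.4, which is most of the sinusoidal sum in WT libraries. The endothelial sums were low beside those of some other marker lists. The 8 stellate and fibroblast markers, led by Dcn and Col1a1, summed to 1300 to 1423 in WT and 1141 to 1387 in LRP1 eKO libraries, and the 8 hepatocyte markers, led by Trf and Ahsg, to 1491 to 1543 and 614 to 900. Most of the hepatocyte sum was Trf alone, at 1358 to 1451 and 581 to 862, while Ahsg, the next, averaged 41.1 and 14.0. The 4 bile duct markers, led by Krt7 and Krt19, summed to 163 to 177 and 139 to 149, although 3 of the 4 had a higher LRP1 eKO mean and the lower sum came from Krt7 (141 to 113). The 2 others did not reach a signal of 1 in 4 libraries, so the sum was almost only that of Krt7 and Krt19. The sum of the fibroblast markers, Trf alone and Krt7 alone thus each exceeded both endothelial sums in every library. That goes against the label of a purified endothelial sample, and the libraries are called WT and LRP1 eKO here rather than by a cell type.

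**Figure D1:**
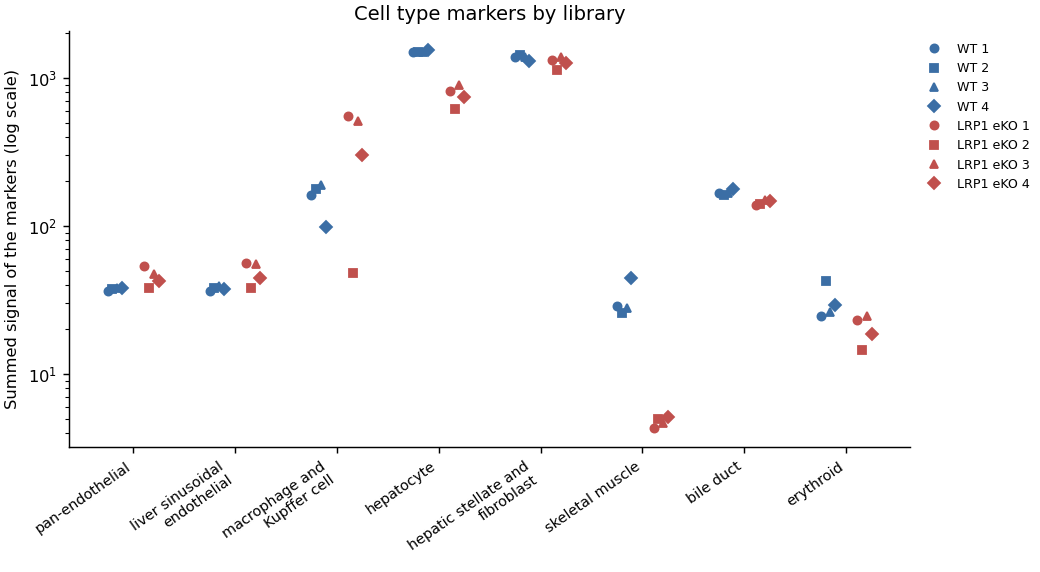
Summed quantile-normalized signal of the markers of each cell type (log scale) in the 4 WT (blue) and 4 LRP1 eKO (red) libraries, with 1 symbol shape per replicate number. The macrophage sum spans 48.1 to 553 among LRP1 eKO libraries, and the hepatocyte and skeletal muscle sums are lower in all LRP1 eKO than in all WT libraries.

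The skeletal muscle sum also separated the genotypes, while the macrophage and erythroid sums overlapped between the groups. Macrophage markers, led by Lyz2 and Cd68, summed to 98.8 to 190 in WT libraries and to 553, 48.1, 511 and 302 in LRP1 eKO replicates 1 to 4, and skeletal muscle markers, led by Myl1 and Tnnt3, to 25.9 to 44.2 and 4.33 to 5.11. Erythroid markers, led by Alas2 and Hba-a1, summed to 24.6 to 42.6 and 14.6 to 24.7, and lymphocyte markers, led by Cd79a and Cd3e, to at most 0.191 in any library. In cells of mixed origin, fewer cells of a type and less RNA per cell cannot be told apart.

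Deletion of Lrp1 was read first. Lrp1 (ENSMUSG00000040249) spans chr10:127538161-127621148 of GRCm38 on the minus strand with 17717 bases of merged exons. WT replicates 1 to 4 gave Lrp1 signals of 61.6, 58.96, 56.2 and 85.1, and LRP1 eKO replicates 1 to 4 gave 6.01, 2.16, 5.15 and 4.32. All 4 WT libraries lay far above all LRP1 eKO libraries, a gap without overlap in this direction that 22.5% of the genes tested had, WT replicate 4 was the highest, and LRP1 eKO replicate 2 was the lowest. The mean signal fell from 65.5 ± 13.3 to 4.41 ± 1.65 (SD, n = 4 each), which is 6.74% of WT. The log2 fold change was -3.66 (95% interval -4.16 to -3.15, limma adjusted p = 2.8e-06), the lowest of the 11391 genes tested, and the exact permutation test for this gene alone, two-sided, gave p = 0.0286, the smallest that 4 against 4 libraries allow. Fold changes are differences of mean log2(signal + 1) and understate changes of low signals.

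A residue of Lrp1 signal remained in every LRP1 eKO library and differed 2.78-fold between the highest and the lowest. At its mean of 4.41 the gene still lay above 61.8% of all 22520 coding genes in LRP1 eKO libraries, against 94.7% in WT. These genes include 6186 to 6308 at a signal of 0 in each LRP1 eKO library, so the share among the genes tested would be lower. The 4 LRP1 eKO libraries had the same order, replicate 1 first, then 3, 4 and 2, by residual Lrp1, by Vldlr, and by the summed macrophage, pan-endothelial and sinusoidal markers. With 4 libraries this is a description, and the part of other cells in the residual signal was not tested.

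Vldlr was the relative with the clearest difference. This receptor for triglyceride-rich lipoproteins and reelin (ENSMUSG00000024924, chr19:27216484-27254231, plus strand, 10068 exon bases) gave 8.62, 9.49, 9.90 and 8.51 in the WT replicates 1 to 4. The matching values of the LRP1 eKO replicates were 17.0, 13.8, 16.8 and 14.2. The groups did not overlap, and the lowest LRP1 eKO library exceeded the highest WT library by 3.86. Mean signal rose from 9.13 ± 0.675 to 15.4 ± 1.70 (SD, n = 4 each), a ratio of 1.69. On the log2(signal + 1) scale the increase was 0.69 (SE 0.081, 95% interval 0.51 to 0.88), or 1.62-fold with an interval of 1.43 to 1.83, at a limma adjusted p of 1.6e-04 (exact two-sided permutation test, p = 0.0286).

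Vldlr kept its call in each fit that left out 1 library, with values of 0.65 to 0.74. With both WT replicate 4 and LRP1 eKO replicate 2 left out it was 0.71 (limma adjusted p = 1.7e-04). Within LRP1 eKO libraries Vldlr followed the order of the summed macrophage markers (553, 48.1, 511 and 302 in replicates 1 to 4), and replicate 2, with the lowest macrophage sum of all 8 libraries, had the lowest Vldlr signal of its group, 13.8, against at most 9.90 in WT. The part of these cells in the Vldlr difference was not tested. A rise was common in these data, since 19% of all genes tested were higher and 22.2% lower in LRP1 eKO libraries at an adjusted p under 0.05, and groups did not overlap for 42.6% of genes, with LRP1 eKO libraries on the higher side for 20%. In size, 2.48% of the genes tested rose by as much as Vldlr or more, and Vldlr stood at rank 282 of 11391 by fold change.

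**Figure D2:**
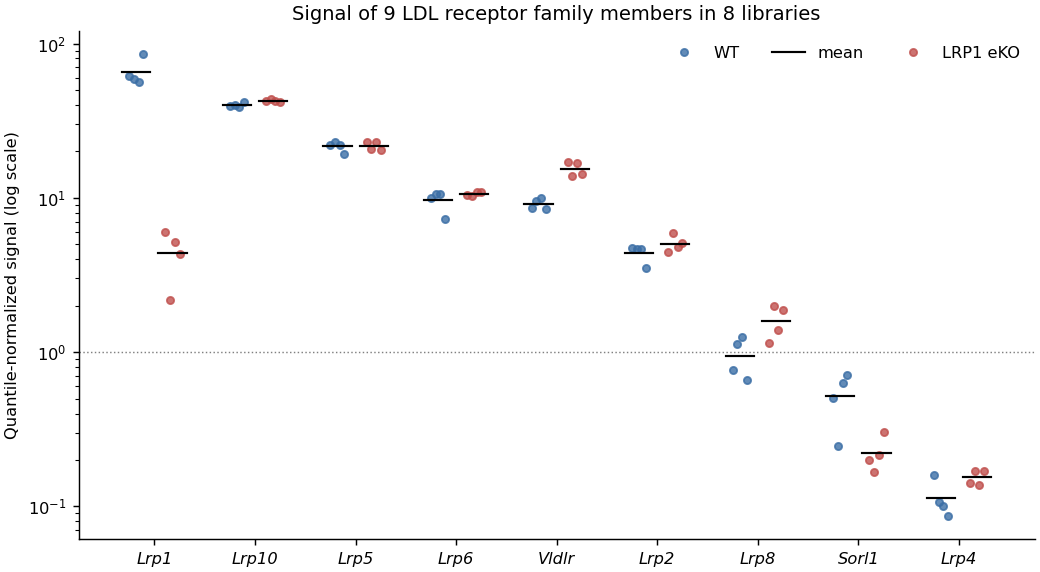
Quantile-normalized signal (log scale) of the 9 members in each of 4 WT (blue) and 4 LRP1 eKO (red) libraries, with the group mean as a bar and members ordered by their WT mean. Lrp1 drops from the highest member to a mean of 4.41, Vldlr is the relative whose groups do not overlap, and the dotted line marks the signal of 1 used as the filter.

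Lrp8 (apoER2), the other reelin receptor, was present at a low level. The gene (ENSMUSG00000028613, chr4:107802261-107876840, plus strand) gave 0.765, 1.13, 1.24 and 0.659 in the WT replicates 1 to 4, where the LRP1 eKO replicates gave 1.15, 1.98, 1.38 and 1.88. LRP1 eKO replicate 1 lay below WT replicate 3, so the groups overlapped. Its mean signal went up from 0.949 ± 0.281 to 1.597 ± 0.395 (SD, n = 4 each), and the log2 fold change was 0.41 (SE 0.13, 95% interval 0.12 to 0.71, limma adjusted p = 0.031). The exact two-sided permutation test of this gene alone gave p = 0.0571. The call rested on single libraries, because the adjusted p was 0.076 without WT replicate 1, 0.070 without WT replicate 4, 0.069 without LRP1 eKO replicate 2 and 0.085 without LRP1 eKO replicate 4. With both WT replicate 4 and LRP1 eKO replicate 2 left out the log2 fold change was 0.27 (adjusted p = 0.118), a value more than 1.5 times smaller.

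Lrp2 did not pass the test. The gene (ENSMUSG00000027070, chr2:69424340-69586065, minus strand) codes for a receptor of a size like that of Lrp1 and gave 4.70, 4.63, 4.63 and 3.50 in the WT replicates and 4.43, 5.87, 4.80 and 5.10 in the LRP1 eKO replicates, in their order. WT replicate 4 was the lowest of all libraries, while LRP1 eKO replicate 1 lay below 3 of the WT libraries. Means were 4.37 ± 0.575 and 5.05 ± 0.615 (SD, n = 4 each), and the log2 fold change was 0.17 (95% interval -0.04 to 0.39, limma adjusted p = 0.176). An increase of up to 1.31-fold is within this interval.

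The Wnt co-receptors showed no difference past the threshold. Lrp5 (ENSMUSG00000024913, chr19:3584828-3686564, minus strand) had 22.1, 23.1, 21.9 and 19.2 in WT and 23.1, 20.7, 23.0 and 20.3 in LRP1 eKO replicates 1 to 4, with fully interleaved libraries. Its means of 21.6 ± 1.65 and 21.7 ± 1.502 (SD, n = 4 each) gave a fold change between 0.907 and 1.12 (95% interval, limma adjusted p = 0.908), and the sign of the difference turned without WT replicate 4 (log2 fold change -0.041), without LRP1 eKO replicate 1 (-0.017) and without LRP1 eKO replicate 3 (-0.015). Lrp6 (ENSMUSG00000030201, chr6:134446476-134566965, minus strand) had 9.95, 10.6, 10.5 and 7.30 in WT and 10.5, 10.2, 10.8 and 10.8 in LRP1 eKO replicates 1 to 4. WT replicate 4 was again the low library, and the other WT libraries lay among or just below those of LRP1 eKO. The means of Lrp6 were 9.61 ± 1.57 and 10.6 ± 0.305 (SD, n = 4 each), and the 95% interval of the fold change was 0.942 to 1.29 (limma adjusted p = 0.288).

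Lrp10, a sorting receptor of the trans-Golgi network and endosomes, was the most highly expressed relative by signal. The gene (ENSMUSG00000022175, chr14:54464137-54471497, plus strand) has the shortest merged exons of the 9 members, 4463 bases. Its signal was 39.2, 39.9, 38.8 and 41.6 in WT and 42.6, 43.4, 42.4 and 41.5 in LRP1 eKO replicates 1 to 4. The groups overlapped only through WT replicate 4, which exceeded LRP1 eKO replicate 4. Means of 39.9 ± 1.23 and 42.5 ± 0.787 (SD, n = 4 each) gave a fold change interval of 0.999 to 1.13 (limma adjusted p = 0.103). Without WT replicate 4 the log2 fold change of Lrp10 was 0.11 and passed (limma adjusted p = 0.024). With 1 library left out at a time it was 0.076 to 0.11, so that the call, rather than the direction, depended on WT replicate 4.

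The remaining relatives, Sorl1 and Lrp4, were below the filter on low signals (1 or more in 4 or more libraries) and were read from a fit of 17959 genes without that filter, in which 27.3% of genes passed, 12% upward and 15.3% downward, and the groups did not overlap for 32%. Sorl1, a sorting receptor that also has a VPS10 domain (ENSMUSG00000049313, chr9:41964720-42124297, minus strand), had 0.502, 0.245, 0.632 and 0.707 in WT and 0.199, 0.167, 0.215 and 0.304 in LRP1 eKO replicates 1 to 4. Its LRP1 eKO mean was 42.4% of the WT mean, and the groups overlapped because WT replicate 2 lay below LRP1 eKO replicate 4. The log2 fold change of -0.31 (95% interval -0.52 to -0.09) passed at a limma adjusted p of 0.043, with an exact permutation p of 0.0571. This call was lost when any library other than WT replicate 2 was left out, with adjusted p values of 0.067 to 0.104, and without WT replicate 2 it was 0.0043.

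Lrp4 (ENSMUSG00000027253, chr2:91457511-91513779, plus strand) was the lowest member. Its signal was 0.159, 0.107, 0.101 and 0.0869 in WT and 0.143, 0.170, 0.138 and 0.168 in LRP1 eKO replicates 1 to 4, and WT replicate 1 lay within the LRP1 eKO range. The log2 fold change was 0.05 (SE 0.022) at a limma adjusted p of 0.114, and without WT replicate 1 it was 0.07 at 0.018. Both genes thus had signals well below 1 in all 8 libraries.

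**Figure D3:**
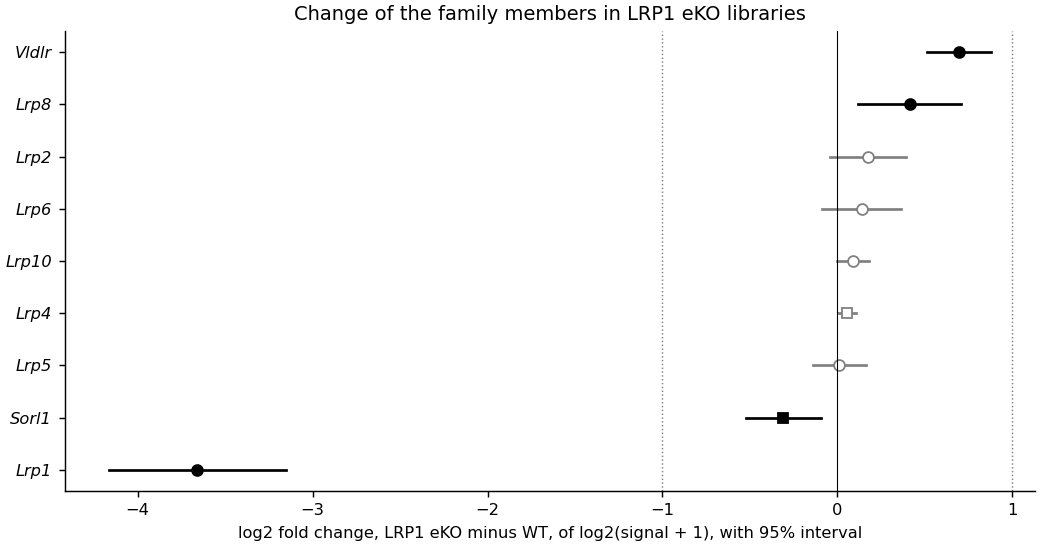
Log2 fold change (LRP1 eKO minus WT, of log2(signal + 1)) of each member with its 95% interval. Filled symbols passed a limma adjusted p under 0.05, squares are the members below the filter (Sorl1 and Lrp4), and dotted lines mark a 2-fold change, which only Lrp1 exceeds on this scale.

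Of the 8 relatives, 7 averaged higher in LRP1 eKO than in WT libraries, where 48.9% of the 17959 genes above 0 did and 48.4% of those tested. Among the 6 relatives in the filtered fit, 2 passed upward (Vldlr and Lrp8), 0 passed downward and 4 did not pass, beside 41.2% of genes called in either direction. Lrp8 met the filter through its LRP1 eKO libraries, since all 4 of these but only 2 WT libraries had a signal of 1 or more, and without the filter it did not pass (limma adjusted p = 0.058), which leaves Vldlr as the call that did not rest on the filter. Vldlr was the 1 relative of these 6 whose groups did not overlap, beside 42.6% of all genes tested. None of the relatives changed by 2-fold on the log2(signal + 1) scale, which 1.66% of the genes tested did at an adjusted p under 0.05, although the ratio of means of Sorl1 exceeded that fold. For the 4 that did not pass in the filtered fit, the intervals allow a fold change between 0.907 and 1.31.

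The order of the members by signal changed with the deletion. In WT libraries Lrp1 was the highest, followed by Lrp10, Lrp5, Lrp6, Vldlr, Lrp2, Lrp8, Sorl1 and Lrp4, and the neighbours Lrp6 and Vldlr, and Lrp8 and Sorl1, overlapped between libraries. In LRP1 eKO libraries Lrp10 led, followed by Lrp5, Vldlr, Lrp6, Lrp2, Lrp1, Lrp8, Sorl1 and Lrp4, with overlap between Lrp2 and Lrp1 and between Sorl1 and Lrp4. Vldlr moved from rank 5 to rank 3 and Lrp1 from rank 1 to rank 6. Whether the signal was divided by gene length before normalization is not stated, although the submitters' processing notes list Cufflinks, a tool that reports values per length. If the signal is divided by exon length, Lrp10 stood above Lrp1 in WT libraries, with 8.94 against 3.70 signal units per kb of exon, and Vldlr above Lrp6, with 0.907 against 0.703.

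**Figure D4:**
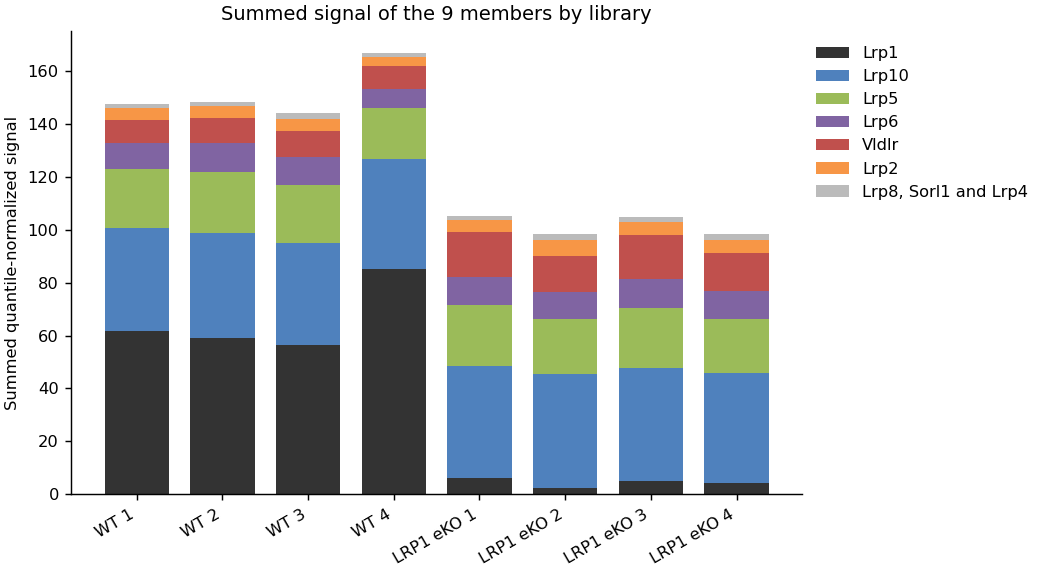
Summed quantile-normalized signal of the 9 members in each library, stacked by member. The total is 144 to 167 in WT and 98.4 to 105 in LRP1 eKO libraries, and the black segment of Lrp1 shrinks by 61.1 on average, more than the difference of the totals, while the other members together gain 11.1.

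Summed over the 9 members, WT libraries had a signal of 152 ± 10.2 and LRP1 eKO libraries one of 102 ± 3.70 (SD, n = 4 each). Lrp1 held 42.9% ± 5.55 of the WT sum and 4.30% ± 1.51 of the LRP1 eKO sum (SD, n = 4 each). The share of Vldlr went from 6.06% to 15.2% and that of Lrp10 from 26.4% to 41.8%, shares of a total that was itself smaller. The 8 relatives alone summed to 81.6 to 89.3 in the WT and to 94.2 to 99.5 in the LRP1 eKO libraries, without overlap. Without Vldlr their sums were 77.0 ± 2.82 and 81.8 ± 1.22 (SD, n = 4 each).

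The relatives gained 11.1 signal units where Lrp1 lost 61.1, or 18.2% of the loss, and Vldlr alone gained 10.3%. With 1 library left out at a time this share was 16.9% to 19.9%, and with both WT replicate 4 and LRP1 eKO replicate 2 left out it was 18.5%. If signals are taken per kb of exon, the gain was 1.38 against a loss of 3.45, or 39.9%. Across genes with a signal of 1 or more, signal fell slightly with exon length in all 8 libraries (Spearman's rho -0.127 to -0.202, over genes, which are not independent replicates), and whether the table is already per length is not stated. On neither scale did the summed relatives replace the lost Lrp1 mRNA signal. Protein levels and receptor activity were not measured in these libraries.

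Genes that work with the receptors were counted in 7 lists. Of 70 listed genes, 46 were tested, 13 were higher, 7 were lower and 26 did not pass, beside 19% and 22.2% of all genes tested. The median log2 fold change of the 46 was 0.07, and that of all genes tested was -0.01. Of the 20 called genes, 12 kept their call in each fit that left out 1 library, and without LRP1 eKO replicate 4 the number of higher genes was 8.

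In the reelin list, 4 of 5 tested genes were higher and 0 were lower, beside 19% and 22.2% of all genes tested. Fyn, the Src family kinase that phosphorylates the adaptor of the reelin receptors, rose from 10.2 to 14.0 (log2 fold change 0.42, limma adjusted p = 2.0e-04). Further partners of the pathway, Crkl (0.28, adjusted p = 0.020), Crk (0.20, adjusted p = 0.036) and Pafah1b1 (0.32, adjusted p = 0.039) were also higher. Crk lost the call without WT replicate 3 or LRP1 eKO replicate 2, 3 or 4, and Pafah1b1 without LRP1 eKO replicate 3 or 4 and without replicate 2 or 4 of WT, at limma adjusted p values of up to 0.0999 and 0.105. Reelin itself was near the floor, since Reln averaged 0.367 in WT libraries and 0.500 in those of LRP1 eKO (limma adjusted p = 0.188, below the filter). Dab1, the gene of the adaptor named above, was at 0 in all WT libraries and reached at most 0.00352 in those of LRP1 eKO.

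For agrin signaling at Lrp4, Agrn, which encodes the heparan sulfate proteoglycan agrin, rose from 20.8 to 31.3 (log2 fold change 0.56, limma adjusted p = 3.5e-04). The kinase partner Musk was at 1.88 and 1.71 and did not pass (adjusted p = 0.534). Rapsn, which encodes the scaffold protein rapsyn and was below the filter, fell from 0.437 to 0.155 (-0.31, adjusted p = 0.016). Its groups did not overlap, as for 32% of the genes in the fit without the filter. The receptor itself, Lrp4, reached at most 0.170 in any library.

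In the Wnt list around Lrp5 and Lrp6, 15 of 25 genes were tested, of which 5 were higher and 4 were lower, beside 19% and 22.2% of all genes tested. Nkd1, an inhibitor of Wnt signaling that is itself a target of the pathway, fell from 9.83 to 3.46 (log2 fold change -1.28, limma adjusted p = 1.3e-06). Axin2, a target and inhibitor of the same kind, fell from 1.49 to 0.717 (-0.55, adjusted p = 0.0027). It met the filter through its WT libraries, since only replicate 1 (1.08) of LRP1 eKO had a signal of 1 or more. With 1 library left out its limma adjusted p was at most 0.011, and its fit without the filter is not given here. The transcription factor gene Lef1, below the filter, fell from 0.511 to 0.210 (log2 fold change -0.32, adjusted p = 0.0012). Rspo3, a secreted enhancer of Wnt signaling, rose from 3.97 to 5.86 (0.47, adjusted p = 4.5e-04). Members of the list therefore passed in both directions while Lrp5 and Lrp6 did not pass.

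Among 11 tested genes for folding, sorting and turnover of the receptors, 9 did not pass, where 41.2% of all genes tested passed in either direction. Snx17, the sorting nexin that recycles Lrp1 by its NPXY motif, fell from 52.8 to 46.2 (log2 fold change -0.19, limma adjusted p = 0.0051). The chaperone genes did not pass, with Lrpap1 at 78.3 and 80.0 (adjusted p = 0.684) and Mesd, the chaperone of Lrp5 and Lrp6, at 59.5 and 56.5 (adjusted p = 0.481). Mylip, a ubiquitin ligase that marks Vldlr and Lrp8 for degradation, was at 5.04 in WT and 3.96 in LRP1 eKO libraries (-0.30, adjusted p = 0.089).

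The other receptors of the lists are given beside the 41.2% of all genes tested that passed in either direction. Of 5 further class A repeat proteins tested, Lrp12 was higher (3.95 to 5.39, log2 fold change 0.36, limma adjusted p = 0.047), and of the VPS10 receptors the 1 tested gene, Sort1, was lower (19.9 to 16.3, -0.27, adjusted p = 0.045). The call of Lrp12 was lost when any library other than WT replicate 3 or LRP1 eKO replicate 2 was left out (limma adjusted p up to 0.119), and that of Sort1 when any other than WT replicate 4 or LRP1 eKO replicate 1 was (up to 0.116). In the list for lipid uptake, with 7 genes tested, Olr1 (LOX-1), a receptor for oxidized lipoproteins, rose from 25.1 to 45.5 (0.83, adjusted p = 7.5e-05). Lpl, the lipase that hydrolyses triglycerides of circulating lipoproteins, fell from 92.6 to 52.7 (-0.82, adjusted p = 5.3e-04). The other 5 did not pass. The median log2 fold change of the 7 tested genes was 0.82, against -0.01 over all genes tested. This median was the value of Cd36, which did not pass (limma adjusted p = 0.236). Cd36 had 21.5, 2.34, 20.7 and 12.45 in LRP1 eKO replicates 1 to 4, the order of their macrophage sums, and 3.64 to 7.39 in WT libraries. The part of these cells in its difference was not tested.

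Genes with a pattern most like that of Lrp1 were named by Pearson's r of log2(signal + 1) over the 8 libraries, as a description. The first 3 were Fam176b, Npr1 and Mad2l1, each at 0.998 and each, like Lrp1, without overlap between the genotypes, as for 42.6% of the genes tested. After each genotype's mean was subtracted, the first 3 were Fam20a (0.993), 2310030G06Rik (0.993) and Cyp2d22 (0.984). Among the relatives, Vldlr had an r of -0.91 with Lrp1 over the 8 libraries and 0.44 after the genotype means were subtracted. After subtraction Lrp2 had -0.92 and Lrp8 -0.81. In WT replicate 4, Lrp1 was the highest (85.1) and Lrp2 the lowest (3.50) of the group. In LRP1 eKO replicate 2, Lrp1 was the lowest (2.16) and Lrp2 the highest (5.87). The values after subtraction were not computed without these libraries.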

How the data were processed

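Values were taken as the authors deposited them, a quantile-normalized signal for each of 22520 coding genes in 8 libraries. The submitters' processing notes list TopHat2, Cufflinks and mm10, while the paper's methods give STAR, featureCounts and edgeR, and neither describes the normalization. Because it fixes library totals, the depth is unknown, no counting error could be computed, and a global shift between genotypes is removed. From the deposited signal, log2(signal + 1) was fitted with limma 3.58.1 in R 4.3.3 (genotype, mean-variance trend, Benjamini-Hochberg) over 11391 genes (1 or more in 4 or more libraries), and without this filter for members below it. Exact permutation tests and correlations used Python 3.11.15. The calculation was tested on simulated data. GENCODE M21 (GRCm38, that is mm10) gave positions, exon lengths and transcripts for 21740 genes.

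Groups came from the labels. The members, lists and tests were chosen with earlier results of these data known. Named genes were all 9 members, at most the 4 smallest adjusted p per list, direct partners (Reln, Agrn, Musk, Lrpap1, Mesd, Mylip), the 2 highest genes of each marker list, and the 3 genes most like Lrp1 on each measure. Cdh5, Pecam1, Cd36 and Dab1 were added after their values were seen. The result of 1 gene of the lists is not reported here. Alternatives were pseudocounts of 0.1 and 5, no filter, no trend, robust moderation, array weights, trimmed-mean centring (30% from each end), a replicate block, a 2-fold threshold, a ratio of means, division by exon length, and libraries left out. For the relatives' gain as a share of the Lrp1 loss, the alternatives were chosen after seeing the data.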

Additional observations from a re-analysis of the deposited data

Results flagged for a closer look

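In each group of 4 libraries, the gap between the most extreme library and its nearest neighbour was divided by the group's range, and 2 of 40 groups passed Dixon's critical value, where chance gives about 2 (1 in 20). For Lrp2 in WT libraries the value was 0.938, because WT replicate 4 (3.50) stood below the others (4.63 to 4.70), and without it Lrp2 still did not pass. For the mean log2 signal of the erythroid markers in WT libraries it was 0.964, with WT replicate 2 as the highest library.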

How the results depend on the processing

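Lrp1 (log2 fold change -3.93 to -2.91) and Vldlr (0.53 to 0.76) kept direction and call, and Lrp2 and Lrp6 stayed short of the threshold, under all 18 alternatives, of which the ratio of means has no test. With array weights the log2 fold change of Lrp8 was 0.29 and no longer passed (adjusted p = 0.051), that of Lrp5 turned to -0.024, that of Lrp10 was 0.10 and passed (0.020), and that of Sorl1 was -0.22 and did not pass (0.110). With both WT replicate 4 and LRP1 eKO replicate 2 left out these values were 0.27 (0.118), -0.018, 0.10 (0.042) and -0.23 (0.170). Lrp8 also did not pass without the filter (0.41, 0.058), nor Sorl1 without the trend (-0.31, 0.054). As log2 ratios of means, Lrp8 was 0.75, Lrp4 0.45 and Sorl1 -1.24, since no pseudocount is added. With 1 library left out, the ranges were 0.34 to 0.50 for Lrp8, -0.40 to -0.25 for Sorl1, 0.041 to 0.072 for Lrp4, 0.076 to 0.11 for Lrp10 and -0.041 to 0.044 for Lrp5, and 8 to 13 for partner genes that were higher. The causes were not tested.

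A 2-fold threshold left 99 genes higher and 90 lower. Per exon length, Lrp1 held 21.8% of the WT sum and 1.68% of the LRP1 eKO sum, and the summed difference of -49.9 became 11.1 without Lrp1. Same-numbered libraries of the 2 groups did not clearly deviate together (correlations -0.130 to 0.178). Because WT replicate 4 was the farthest of its group for 61.7% of genes, this cannot decide whether the numbers pair the libraries. With the replicate number as a block, 1975 genes were higher and 2210 lower, Vldlr was at 0.69 (adjusted p = 7.5e-04), Lrp8 at 0.41 (0.033) and Sorl1 at -0.31 (0.027), and no member's call changed. Signals under 1, as for Sorl1 and Lrp4, and an unknown depth limit what can be read from the low members.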
